A study of Mus musculus with 18 samples.

Results

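The genes described here encode the constitutive proteasome: the subunits of the 20S core and of the 19S cap, the chaperones that assemble both, and the inhibitor PI31. They were taken as all protein-coding genes with a Psma, Psmb, Psmc, Psmd, Psmf or Psmg symbol, without the 3 inducible subunits Psmb8, Psmb9 and Psmb10, and there were 41 of them among 33440 genes. RNA was sequenced in 18 mouse libraries from 2 experiments. In the first, stromal vascular cells (SVF) of the inguinal fat of IRF3-2D mice were differentiated into adipocytes, transduced on day 6 and studied on day 8. The 3 WT libraries come from cells given AAV-GFP, and the 3 FI3OE libraries come from cells given AAV-GFP-Cre. IRF3-2D is a constitutively active form of the transcription factor IRF3, and its allele is silent until Cre acts on it. Both groups carry the allele, so that FI3OE cells differ from WT cells by Cre itself as well as by IRF3-2D. In the second, translating ribosome affinity purification (TRAP) was used to isolate RNA on tagged ribosomes of adipocytes in epididymal fat (eWAT) of FI3KO mice, which lack Irf3 in adipocytes (FI3KO-Ad-NuTRAP, 6 libraries), and of WT mice (Ad-NuTRAP, 6 libraries). All TRAP mice were on HFD for 8 weeks at thermoneutrality and carry Adipoq-Cre, which drives both the ribosome tag and, in FI3KO, the deletion. The experiments differ in tissue, preparation and diet, and levels were tested only within each experiment.

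The 20S core is a barrel of stacked rings. The outer alpha rings gate the entry of substrates, and the inner beta rings carry the proteolytic sites in Psmb5 (chymotrypsin-like), Psmb6 (caspase-like) and Psmb7 (trypsin-like). The 19S cap consists of a base, with a ring of ATPases (Psmc genes) that unfolds substrates, and a lid, which removes ubiquitin. In cells exposed to interferon, the inducible subunits Psmb8, Psmb9 and Psmb10 replace Psmb5, Psmb6 and Psmb7 in newly assembled particles, which favours peptides for antigen presentation. When proteasome activity falls, the transcription factor Nfe2l1 raises the transcription of most subunit genes together.

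The libraries held between 21541218 and 40490163 reads assigned to genes. Irf3 itself was higher in FI3OE than in WT SVF-derived adipocytes, with 92.0, 102 and 91.4 CPM (read counts scaled to the library's total by TMM) against 57.9, 56.8 and 56.8 CPM, a log2 fold change of 0.73 ± 0.046 (SE). In TRAP it was at 12.5 to 19.97 CPM (median 15.3) in FI3KO and at 16.4 to 22.8 CPM (median 20.5) in WT, and the groups overlapped (-0.35, adjusted p = 0.02). Per length, its level went the other way, with 55.1 to 93.5 TPM in FI3KO and 37.8 to 47.3 TPM in WT and no overlap. Of its transcripts, 1, chosen after its values were seen, had 0 reads in every FI3KO library, which allows up to 3 reads, and 164 to 388 reads in the WT TRAP libraries. Adipocyte markers were present throughout, with none of 12 at 0. In the SVF experiment the summed adipocyte markers were 7087 to 7437 CPM in FI3OE and 6859 to 7005 CPM in WT, and the 15 macrophage markers 2283 to 2329 CPM against 2364 to 2526 CPM. Summed fibroblast and preadipocyte markers were 12565 to 12736 CPM in FI3OE and 13089 to 13657 CPM in WT, and endothelial markers 17.98 to 20.2 CPM and 14.6 to 16.4 CPM, both without overlap. The share of reads from mitochondrial genes was 1.01 to 1.16% in FI3OE and 2.12 to 2.31% in WT. In TRAP, replicates 1 and 2 of both genotypes stood apart from replicates 3 to 6. The summed macrophage markers were 39.4 and 50.3 CPM in FI3KO replicates 1 and 2 and 42.1 and 41.3 CPM in the WT libraries of those numbers, but 17.4 to 20.2 CPM in FI3KO and 76.2 to 104 CPM in WT replicates 3 to 6. The summed fibroblast and preadipocyte markers were 1146 and 1075 CPM against 1032 and 1024 CPM in replicates 1 and 2, and 576 to 964 CPM in FI3KO against 1534 to 2229 CPM in WT in replicates 3 to 6. Endothelial markers were at 56.4 and 89.4 CPM in FI3KO replicates 1 and 2, and at 18.5 to 33.4 CPM in the other 10 TRAP libraries. Epididymal markers were at 1.47 and 1.497 CPM in FI3KO replicates 1 and 2 and at 0.0619 to 0.301 CPM in the other 10. The summed adipocyte markers were 26614 to 30751 CPM in FI3KO and 29121 to 33140 CPM in WT. Of 12 macrophage markers tested in TRAP, 10 were lower and 1 was higher in FI3KO, and none of the 15 was at 0 in any group. What these differences contribute to the values below was not tested, and in bulk libraries fewer cells of a type and less RNA per cell cannot be told apart.

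Genes of the proteasome were expressed in all 4 groups. Without Psma8 and Psmb11, the 31 subunits of the 20S and 19S particles had a median of 110 TPM (a share of all transcripts that allows for their length) in WT SVF-derived adipocytes, 133 TPM in FI3OE, 115 TPM in WT TRAP and 112 TPM in FI3KO TRAP. Psmb4, a beta ring subunit without proteolytic activity, had the highest mean in each group (291 ± 7.4 TPM in WT SVF-derived adipocytes, SD, n = 3, and 287 ± 16 TPM in WT TRAP, SD, n = 6). Psma1 and Psma3 followed in WT SVF-derived adipocytes with 243 ± 6.5 and 234 ± 5.9 TPM, and their ranges over the 3 libraries overlapped. In FI3OE, Psmb4 (369 ± 11 TPM) and Psma1 (362 ± 31 TPM) overlapped too, and Psma1 was the higher of them in FI3OE replicate 2. Assembly chaperones were lower as a group, with a median of 26.0 TPM over 7 genes in WT SVF-derived adipocytes, and the chaperone Psmd10 was the lowest at 11.5 ± 0.72 TPM. Psma8 and Psmb11, which are known from testis and thymus, stayed under 0.75 TPM in every library and were too low to test. The other 39 members were tested in both experiments.

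FI3OE SVF-derived adipocytes expressed 30 of the 31 tested subunits of the 20S and 19S particles at a higher level than WT cells. Of 39 members tested, 33 were higher and 0 were lower at an adjusted p of 0.05 or less, while 20.2% of all 16105 genes tested were higher and 16.8% were lower. The median log2 fold change was 0.34 over the members (1.27-fold) and -0.0047 over all genes tested. Changes were small in size: none of the members passed both the p threshold and a log2 fold change of 1, which 3.62% of all genes did. At an unadjusted p of 0.05 edgeR placed 34 members higher and 0 lower (24.2% and 21.6% of all genes). At an adjusted p of 0.05 or less, DESeq2 called 32 higher and 0 lower (16.7% and 12.8%). The 3 FI3OE libraries all exceeded the 3 WT libraries in 34 of 39 members, and lay below them in 0, compared with 25.7% and 23.8% of all genes. The plot of fold changes by subcomplex shows the members in order.

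**Figure D1:**
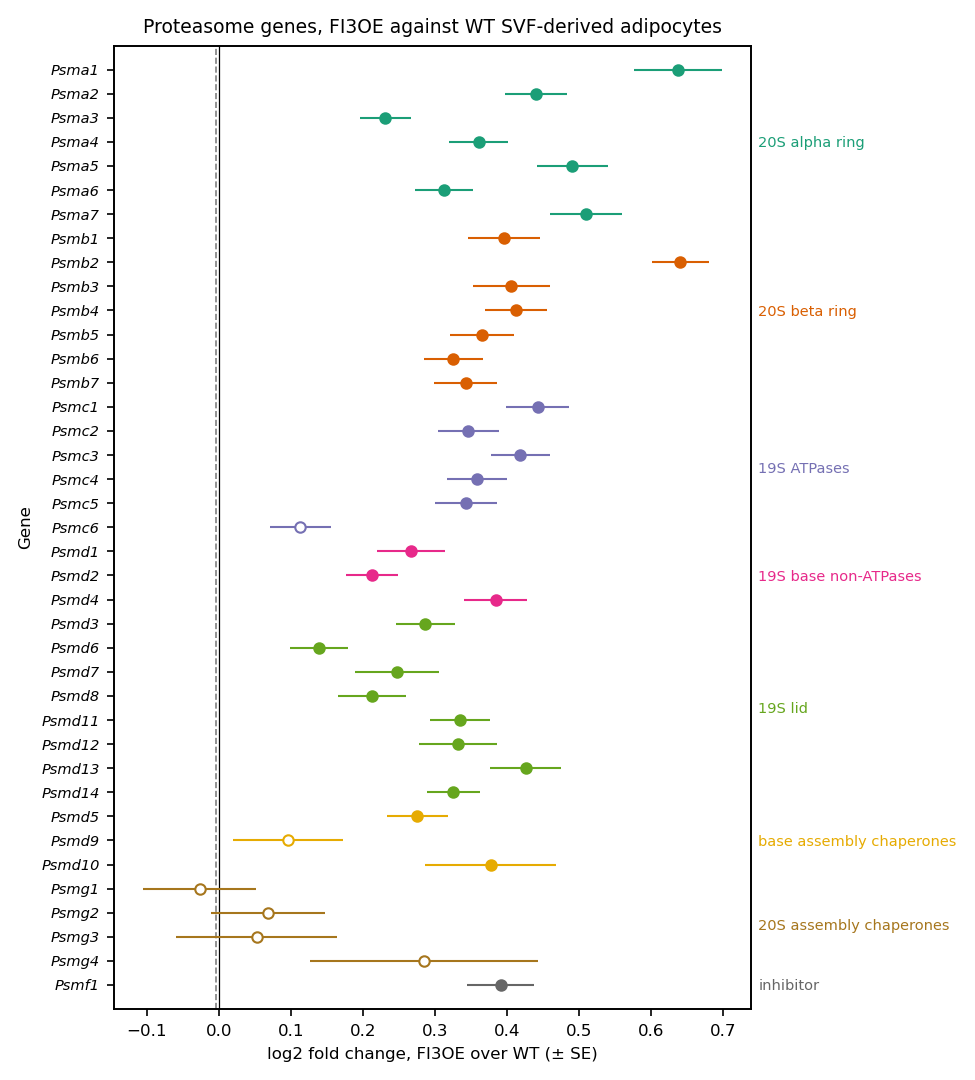
Log2 fold change of 39 proteasome genes, FI3OE over WT SVF-derived adipocytes (points, 3 libraries per group, bars ± SE), ordered and coloured by subcomplex. Filled points have an adjusted p of 0.05 or less (edgeR), open points do not, and the dashed line is the median of all genes tested; 33 points are filled and all lie to the right of 0.

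In the alpha ring, all 7 tested members rose, with a median log2 fold change of 0.44. Psma1 was among the members with the largest change: it was at 139, 131 and 139 CPM in WT libraries 1 to 3 and at 196, 235 and 206 CPM in FI3OE libraries, a log2 fold change of 0.64 ± 0.061 (adjusted p = 9.09e-06). The second FI3OE library was the highest, and the groups did not overlap. Psma2 was at 44.4, 43.1 and 42.5 CPM in WT and at 59.6, 60.3 and 56.7 CPM in FI3OE (0.44 ± 0.043, adjusted p = 1.10e-05). Each group of Psma2 values was tight and well apart from the other. Psma7 (0.51) and Psma5 (0.49) rose nearly as much as Psma1, followed by Psma4 (0.36) and Psma6 (0.31), and Psma3 rose least (0.23), a call lost with protein-coding transcripts alone.

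In the beta ring, all 7 tested members rose as well, with a median log2 fold change of 0.40. Psmb2, a structural beta subunit, had the smallest p of all members. It was at 56.1, 56.2 and 56.2 CPM in the WT libraries and at 84.4, 91.2 and 87.0 CPM in FI3OE, a log2 fold change of 0.64 ± 0.040 (adjusted p = 2.92e-07), so that every FI3OE library was above every WT library. Psmb4 rose from 95.4, 96.2 and 102 CPM to 127, 136 and 128 CPM (0.41 ± 0.043). The proteolytic subunits rose as well, with lower fold changes than Psmb2. Psmb5 was at 54.0, 56.9 and 56.7 CPM in WT and at 68.9, 71.6 and 75.1 CPM in FI3OE (0.37 ± 0.044, adjusted p = 5.88e-05), a call lost in the fit of all 18 libraries (adjusted p = 0.0539). Psmb6 went from 42.2, 43.2 and 44.3 CPM to 55.0, 53.9 and 53.7 CPM (0.33 ± 0.041, adjusted p = 7.59e-05). Psmb7 went from 54.6, 57.5 and 54.2 CPM to 67.8, 73.2 and 69.7 CPM (0.34 ± 0.044, adjusted p = 8.90e-05), and part of its transcript is shared with Nek6, so that reads can be split between them. For all 3 the groups stayed apart, and the remaining members Psmb3 (0.41) and Psmb1 (0.40) rose by similar amounts.

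**Figure D2:**
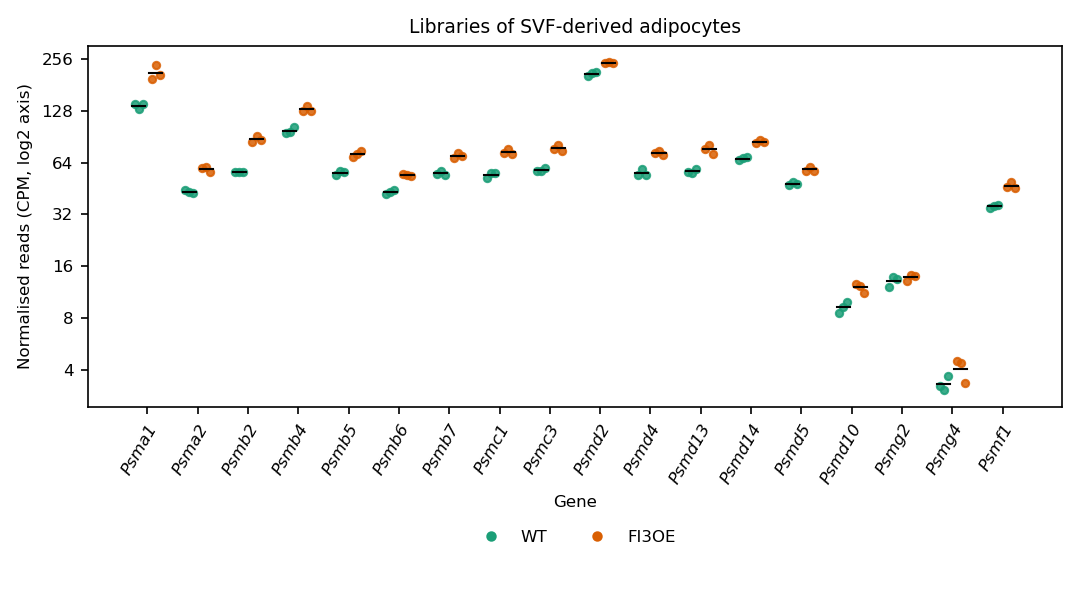
Normalised reads (CPM, log2 axis) of 18 proteasome genes in each library of SVF-derived adipocytes, WT (green) and FI3OE (orange), 3 libraries each; horizontal lines are group means. The groups are apart in every gene shown except the chaperones Psmg2 and Psmg4.

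Of the 6 ATPases of the 19S base, 5 rose. Psmc1 was at 52.0, 55.4 and 55.5 CPM in WT and at 73.1, 76.8 and 71.5 CPM in FI3OE (0.44 ± 0.044, adjusted p = 1.26e-05). Psmc3 was at 57.2, 57.4 and 59.2 CPM in WT and at 77.1, 80.5 and 74.7 CPM in FI3OE (0.42 ± 0.041, adjusted p = 1.15e-05). Both groups of 3 were apart for either gene, and Psmc4 (0.36), Psmc2 (0.35) and Psmc5 (0.34) followed. Psmc4 and Psmc2 lost their calls in the fit of all 18 libraries. Psmc6 was the exception among the ATPases, with 95.5, 99.1 and 95.4 CPM in WT and 99.3, 105 and 109 CPM in FI3OE (0.11 ± 0.042, adjusted p = 0.055). Its groups did not overlap, but the change missed the threshold, and without FI3OE replicate 1 the adjusted p was 0.026. Per length its mean was lower in FI3OE, with 130.0 to 145 TPM against 138 to 148 TPM in WT, and these ranges overlapped.

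The 3 remaining subunits of the base rose. Psmd4, a ubiquitin receptor, was at 54.2, 58.6 and 54.2 CPM in WT and at 72.4, 74.6 and 70.9 CPM in FI3OE (0.38 ± 0.044). The scaffold Psmd2, the most abundant member in reads, was at 204, 212 and 215 CPM in WT and at 242, 246 and 242 CPM in FI3OE (0.21 ± 0.036, adjusted p = 0.000701), and it missed the threshold in the fit of all 18 libraries (adjusted p = 0.0859). The groups of both genes were apart, and the other scaffold Psmd1 rose by 0.27.

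All 8 subunits of the lid rose by edgeR, with a median log2 fold change of 0.31. DESeq2 called 7 of the 8, and a fit of all 18 libraries lost Psmd3, Psmd6, Psmd7, Psmd8 and Psmd12. Psmd13 was at 56.8, 55.4 and 58.4 CPM in WT and at 76.4, 81.4 and 71.8 CPM in FI3OE (0.43 ± 0.050, adjusted p = 4.28e-05); it shares part of its transcript with Sirt3. Psmd14, the deubiquitinase of the lid, was at 65.8, 67.8 and 68.9 CPM in WT and at 83.2, 86.0 and 84.5 CPM in FI3OE (0.32 ± 0.037, adjusted p = 3.39e-05). Both genes had FI3OE libraries above all WT libraries. The smallest change in the lid was that of Psmd6 (0.14 ± 0.040, adjusted p = 0.0177), which lost its call without FI3OE replicate 3 (adjusted p = 0.069) or without WT replicate 2 (adjusted p = 0.064). The other lid subunits rose by 0.21 (Psmd8) to 0.33 (Psmd11). Psmd11 shares a stretch of 1501 bases at 99.0% identity with A730017L22Rik, so that reads can be split between them.

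Among the 7 assembly chaperones, 2 rose (20.2% of all genes tested). Of the base chaperones, which hold ATPases until the base is complete, Psmd5 rose from 47.3, 49.4 and 48.0 CPM to 57.2, 60.7 and 57.2 CPM (0.28 ± 0.043) and Psmd10 from 8.59, 9.31 and 9.92 CPM to 12.7, 12.3 and 11.2 CPM (0.38 ± 0.091, adjusted p = 0.00688). Psmd5 lost its call with an offset for average transcript length (adjusted p = 0.0662) and Psmd10 in the fit of all 18 libraries (adjusted p = 0.194). Psmd9 did not pass the test (0.10, adjusted p = 0.365). Of the 20S chaperones Psmg1 to Psmg4, which guide the alpha ring, 0 of 4 passed the test by edgeR or by DESeq2. At an unadjusted p of 0.05 the count was also 0 by either tool. By edgeR, 24.2% of all genes passed this as higher and 21.6% as lower, and by DESeq2 13.2% passed as higher. With 4 genes, a count of 0 cannot be told apart from these shares. Psmg2 was at 12.2, 13.9 and 13.5 CPM in WT and at 13.1, 14.3 and 14.1 CPM in FI3OE (0.068 ± 0.079, adjusted p = 0.539), and Psmg4 was at 3.22, 3.06 and 3.70 CPM in WT and at 4.52, 4.38 and 3.36 CPM in FI3OE (0.28 ± 0.16, adjusted p = 0.187). The groups overlapped in all 4 genes, and their SE was 0.078 to 0.16, compared with 0.036 to 0.061 in the particle subunits. Psmf1, which encodes the inhibitor PI31, rose from 35.0, 36.1 and 36.2 CPM to 46.1, 49.2 and 45.5 CPM (0.39 ± 0.047, adjusted p = 5.17e-05), with the groups apart.

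Added up, the members took 4087 ± 33 TPM in WT and 4987 ± 74 TPM in FI3OE (SD, n = 3 each). The 3 sums were 4052 to 4116 TPM in WT and 4924 to 5069 TPM in FI3OE. The alpha ring took 963 ± 9.0 TPM in WT and 1247 ± 30 TPM in FI3OE, the beta ring 1120 ± 19 and 1427 ± 23 TPM, the lid 869 ± 9.6 and 1008 ± 17 TPM, and the 20S chaperones 111 ± 6.7 and 112 ± 1.7 TPM. Every FI3OE sum of the rings and of the lid was above every WT sum, and the ranges of the 20S chaperones overlapped.

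Promoters were read for the sequence that Nfe2l1 binds with its partners, for the CCAAT box and for the core of the interferon-stimulated response element bound by IRF factors. RefSeq windows (GRCm38.p6, 250 bases before to 50 bases after the gene start) were found for 33 of the 41 members, and not for Psmb1, Psmb2, Psmb7, Psmc3, Psmd3, Psmd7, Psma8 and Psmg2. The 250 bases before the start are shown, 5′ to 3′ on the strand of the gene, for Psmb5 (chr14:54617996-54618245, minus strand) and Psmb6 (chr11:70525107-70525356, plus strand), the proteolytic subunits that hold the antioxidant response element core, for Psma1 (chr7:114276117-114276366, minus strand), which has the largest change in the alpha ring, and for Psmd4 (chr3:95042615-95042864, minus strand), which holds the interferon element core. Capitals mark any match to one of the 3 motifs, on either strand.
Psmb5: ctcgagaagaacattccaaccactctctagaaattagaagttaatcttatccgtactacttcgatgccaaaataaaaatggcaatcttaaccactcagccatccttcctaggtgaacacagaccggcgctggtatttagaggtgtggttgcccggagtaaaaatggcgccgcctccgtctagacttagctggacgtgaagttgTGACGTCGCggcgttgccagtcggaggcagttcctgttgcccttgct
Psmb6: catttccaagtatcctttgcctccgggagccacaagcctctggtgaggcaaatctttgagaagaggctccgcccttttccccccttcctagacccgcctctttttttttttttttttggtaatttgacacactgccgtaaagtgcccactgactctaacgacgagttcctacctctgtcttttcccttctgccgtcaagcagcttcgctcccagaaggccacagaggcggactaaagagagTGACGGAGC
Psma1: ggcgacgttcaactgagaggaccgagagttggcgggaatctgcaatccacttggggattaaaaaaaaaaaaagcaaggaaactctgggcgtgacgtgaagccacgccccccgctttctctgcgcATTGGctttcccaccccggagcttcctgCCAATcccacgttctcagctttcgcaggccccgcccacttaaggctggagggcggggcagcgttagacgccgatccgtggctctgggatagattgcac
Psmd4: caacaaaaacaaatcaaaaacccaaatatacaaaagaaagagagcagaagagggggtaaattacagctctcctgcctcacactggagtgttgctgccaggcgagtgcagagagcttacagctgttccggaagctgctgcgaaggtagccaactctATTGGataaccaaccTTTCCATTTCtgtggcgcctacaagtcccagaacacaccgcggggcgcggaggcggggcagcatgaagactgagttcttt

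The antioxidant response element core (TGACNNNGC, both strands) was in 5 members, or 15.2% of the 33, against 14.0% of the 27025 genes in the table. These were Psmb5, Psmb6, Psmc6, Psmd12 and Psmd9. Among them, Psmb5, Psmb6 and Psmd12 rose in FI3OE, and Psmc6 and Psmd9 did not pass the test. CCAAT was in 12 members (36.4% against 41.1% of all genes). The interferon element core (GAAA, any 2 bases, GAAA, both strands) was in 4 members, Psmb3, Psmd4, Psmd9 and Psmg4 (12.1% against 3.99% of all genes). Psmb3 and Psmd4 rose, and Psmd9 and Psmg4 did not pass the test. The motifs do not overlap in the sequences shown, and a match is a match of letters only.

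Partners of the proteasome were examined beside the members. All 3 inducible subunits rose, with fold changes above those of every member. Psmb8 was at 69.0, 72.3 and 64.0 CPM in WT and at 165, 182 and 165 CPM in FI3OE (1.32 ± 0.055), Psmb9 rose by 1.31 ± 0.056 and Psmb10 by 1.05 ± 0.045. The activator subunits Psme1 (0.98 ± 0.053) and Psme2 (0.87 ± 0.042), which form the interferon-inducible cap PA28, also rose. Psme4, the nuclear activator, fell by 0.15 on the log2 scale, and Psme3 did not pass the test. Pomp, the chaperone that completes the beta ring, rose from 44.1, 45.0 and 46.6 CPM to 65.0, 64.7 and 59.4 CPM (0.48 ± 0.048, adjusted p = 1.3e-05). Its 3 FI3OE values were all above its WT values, unlike those of the Psmg chaperones. Nfe2l1 went the other way, with 479, 498 and 490.5 CPM in WT and 363, 362 and 370.1 CPM in FI3OE (-0.42 ± 0.034, adjusted p = 2.2e-06), and so did Ddi2 (-0.43), the protease that activates it, while its deglycosylase Ngly1 did not pass the test. Of the 32 partner genes in all, 16 rose and 5 fell, against 20.2% and 16.8% of all genes tested. They include 2 of 4 ubiquitin genes and both E1 enzymes among those that rose.

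The balance between inducible and constitutive subunits at each proteolytic site was read from TPM within each library, as a description with no test. Psmb8 made up 51.0 to 55.3% of Psmb8 plus Psmb5 in WT SVF-derived adipocytes and 67.6 to 71.3% in FI3OE. Psmb9 made up 29.0 to 30.4% of its pair with Psmb6 in WT and 44.1 to 49.0% in FI3OE. Psmb10 made up 43.3 to 47.3% of its pair with Psmb7 in WT and 55.3 to 55.8% in FI3OE. The ranges were apart for all 3 pairs, although the constitutive partner rose too. Tissue, preparation and diet differ between the experiments. Summed macrophage markers were 2283 to 2526 CPM in the SVF experiment and 17.4 to 104 CPM in TRAP. What this contributes to the shares was not tested. In TRAP the inducible share was lower at the first 2 sites: 15.6 to 21.6% (WT) and 8.03 to 18.96% (FI3KO) for Psmb8, and 10.3 to 13.5% (WT) and 7.99 to 14.3% (FI3KO) for Psmb9. For Psmb10 it was 33.2 and 31.4% in WT replicates 1 and 2, 43.5 to 46.3% in WT replicates 3 to 6 and 28.7 to 35.7% in FI3KO. The WT libraries of replicates 1 and 2 therefore lay within the FI3KO range for Psmb10. Macrophage markers were lower in those WT libraries than in WT replicates 3 to 6. In FI3KO these markers were higher in replicates 1 and 2, where the Psmb10 share was 33.0 and 28.7%, against 29.7 to 35.7% in replicates 3 to 6. The Psmb9 share was 13.2 and 13.5% in WT replicates 1 and 2 and 10.3 to 10.4% in WT replicates 3 to 6. The part of macrophage markers in these shares was not tested.

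**Figure D3:**
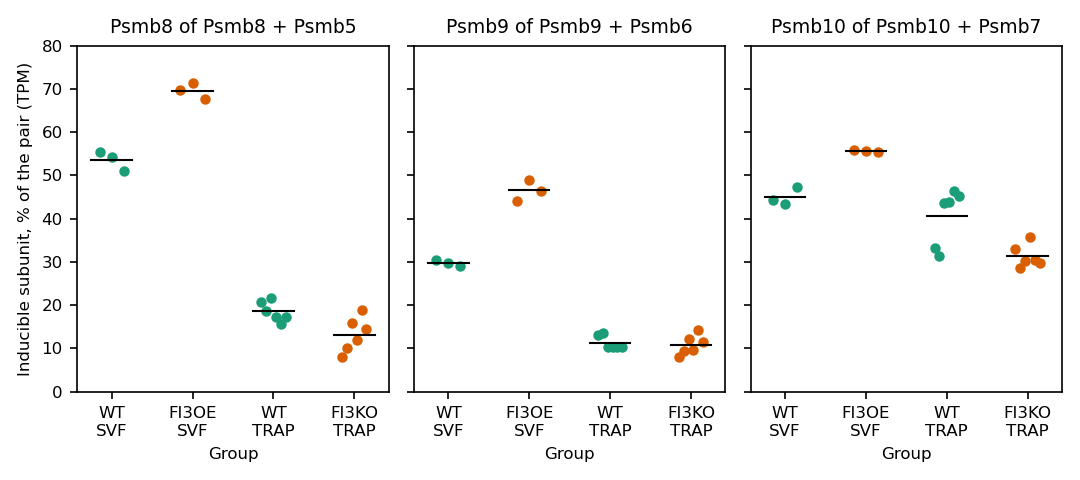
Share of the inducible subunit in each pair of inducible and constitutive subunits (% of the summed TPM), one point per library in 4 groups, with group means as lines. Shares in FI3OE lie above those in WT SVF-derived adipocytes for all 3 pairs, and TRAP libraries hold less Psmb8 and Psmb9.

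In TRAP, proteasome genes were called in both directions between FI3KO and WT, at shares near or below those of all genes. Of 39 members tested, 8 were higher and 3 were lower in FI3KO, while 19.1% of all 13624 genes tested were higher and 18.3% were lower. These shares of members are near or below the background. The lower count was 6 without WT replicate 1 or 2, and 1 without FI3KO replicate 3 or 4 or without WT replicate 3, 4 or 6, and the higher count was 5 without FI3KO replicate 6. With WT replicates 1 and 2 averaged, 7 were higher and 6 lower. Shares of all genes in these alternative fits are not given, so that these counts cannot be set against a background. The median log2 fold change was 0.053 over the members and 0.016 over all genes. None of the members reached a log2 fold change of 1, which 6.61% of genes passed together with the p threshold. In CPM, the 2 genotypes overlapped in 37 members, and FI3KO libraries were all above WT libraries in 2, Psmd2 and Psmg3, and below them in 0, against 7.47% and 8.53% of all genes. Per length, the genotypes overlapped in Psmd2 and Psmg3. Psmd13 was then lower in FI3KO without overlap (118 to 134 TPM against 136 to 161 TPM in WT).

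Because replicates 1 and 2 stood apart from replicates 3 to 6, each set was also tested alone. In replicates 3 to 6, 9 members were higher and 8 were lower (25.7% and 24.8% of all genes). The 8 genes called higher in all libraries were among them, and Psma6 and Psmc4 of the 3 called lower, but not Psmb2. The rest were Psmb3, called higher, and Psmc3, Psmd6, Psmd10, Psmd13, Psmd14 and Psmg2, called lower. In replicates 1 and 2, with 2 libraries per genotype, edgeR called 0 members in either direction (1.58% and 1.98% of all genes), and 7 were higher and 2 lower at an unadjusted p of 0.05 (14.9% and 14.2% of all genes).

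**Figure D4:**
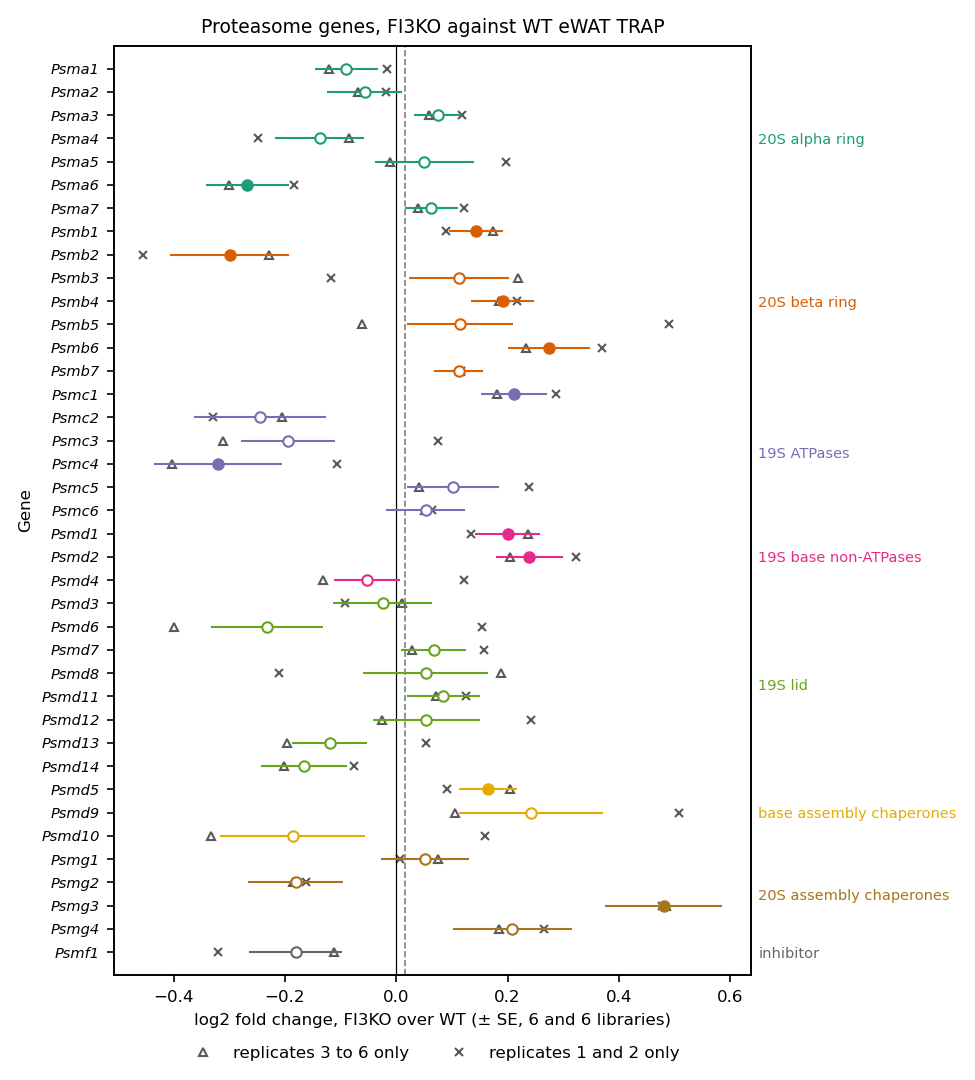
Log2 fold change of 39 proteasome genes, FI3KO over WT in eWAT TRAP (circles, 6 libraries per group, bars ± SE), ordered and coloured by subcomplex, with the values in replicates 3 to 6 alone (triangles) and in replicates 1 and 2 alone (crosses). Filled circles have an adjusted p of 0.05 or less (edgeR); the dashed line is the median of all genes tested. Filled circles lie on both sides of 0, with 8 to the right and 3 to the left.

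Of the alpha ring, Psma6 fell and the other 6 tested members did not pass the test. Psma6 was at 82.5 to 107 CPM in WT (median 100.3) and at 68.0 to 85.2 CPM in FI3KO (median 82.0), a log2 fold change of -0.27 ± 0.074 (adjusted p = 0.0134). The groups overlapped through WT replicate 2, and in replicates 3 to 6 every FI3KO library was below every WT library (-0.30, adjusted p = 0.000593). Psma3 was at 97.4 to 108 CPM in WT (median 100.6) and at 102 to 112 CPM in FI3KO (median 106), with no call (0.075, adjusted p = 0.189). With protein-coding transcripts alone it passed the test as lower in FI3KO (-0.39, adjusted p = 0.0283).

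In the beta ring, Psmb6, Psmb4 and Psmb1 rose and Psmb2 fell. Psmb6 was at 49.0 to 57.3 CPM in WT (median 50.3) and at 54.7 to 72.5 CPM in FI3KO (median 61.5), a log2 fold change of 0.27 ± 0.073 (adjusted p = 0.0109). Psmb4 was at 83.0 to 97.2 CPM in WT (median 88.0) and at 90.8 to 107 CPM in FI3KO (median 103), or 0.19 ± 0.057 (adjusted p = 0.0183). Both overlapped between the genotypes, and Psmb4 missed the threshold without FI3KO replicate 6 (adjusted p = 0.053) and with the length offset (adjusted p = 0.0864). Psmb1 rose by 0.14 ± 0.049 (adjusted p = 0.035), a call lost without any one of 8 libraries (FI3KO replicates 3, 4, 5 or 6 and WT replicates 1, 2, 4 or 6, adjusted p up to 0.105). Psmb2 fell by 0.30 on the log2 scale (adjusted p = 0.0422), with 1 library of each group far from the others: FI3KO replicate 1 was at 24.5 CPM with the others at 34.7 to 39.9 CPM, and WT replicate 3 was at 52.7 CPM with the others at 39.2 to 42.1 CPM. It lost its call without WT replicate 3 (-0.23, adjusted p = 0.111), without WT replicates 4 or 6 and without FI3KO replicates 2, 3 or 4, and it stayed lower without FI3KO replicate 1 (-0.22, adjusted p = 0.036). Psmb3 did not pass (0.11, adjusted p = 0.344). It passed as higher without FI3KO replicate 1 (0.18, adjusted p = 0.0428) and in replicates 3 to 6 alone (0.22, adjusted p = 0.0236). The proteolytic subunits Psmb5 and Psmb7 did not pass. Psmb5 was at 41.5 to 61.1 CPM in WT (median 53.7) and at 48.3 to 67.4 CPM in FI3KO (median 56.8), and Psmb7 was at 53.9 to 59.6 CPM in WT (median 55.7) and at 58.4 to 64.2 CPM in FI3KO (median 60.7, adjusted p = 0.061).

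Among the ATPases, Psmc1 rose and Psmc4 fell. Psmc1 was at 56.6 to 69.1 CPM in WT (median 61.5) and at 67.5 to 79.9 CPM in FI3KO (median 71.2), a log2 fold change of 0.21 ± 0.060 (adjusted p = 0.0144), which was 0.04 with an offset for transcript length (adjusted p = 0.652). Psmc4 was at 37.6 to 58.1 CPM in WT (median 46.7) and at 30.1 to 40.2 CPM in FI3KO (median 39.5), or -0.32 ± 0.12 (adjusted p = 0.0434). Both WT libraries at the low end of Psmc4 were replicates 1 and 2, and the call was lost without any one of 8 libraries (FI3KO replicates 1, 3, 4 or 6 and WT replicates 3, 4, 5 or 6, adjusted p up to 0.110), with no filter on low counts and with the length offset. In the base, the scaffolds Psmd2 and Psmd1 rose. Psmd2 was at 231 to 265 CPM in WT (median 243) and at 268 to 316 CPM in FI3KO (median 289), a log2 fold change of 0.24 ± 0.060 (adjusted p = 0.00833) with no overlap in CPM. Per length its ranges overlapped, at 164 to 191 TPM in WT and 179 to 221 TPM in FI3KO. Psmd1 was at 136 to 162 CPM in WT (median 146) and at 151 to 182 CPM in FI3KO (median 169), or 0.20 ± 0.058 (adjusted p = 0.0169), with the lowest FI3KO library under the highest WT library.

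**Figure D5:**
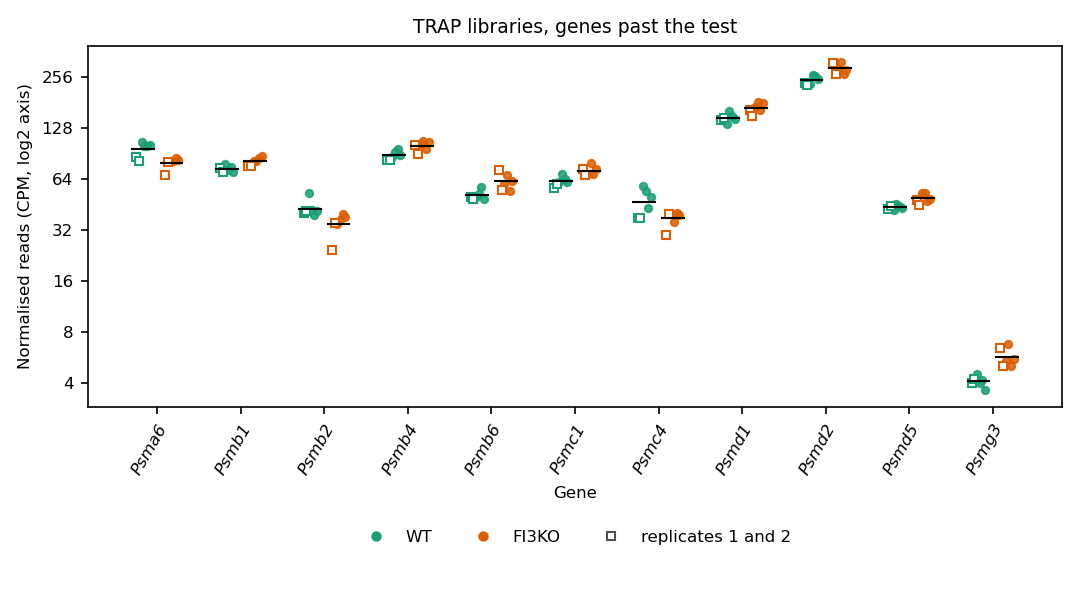
Normalised reads (CPM, log2 axis) of the 11 proteasome genes that passed the test in TRAP, in each WT (green) and FI3KO (orange) library, with replicates 1 and 2 as open squares and group means as lines. In CPM, genotypes are apart in Psmd2 and Psmg3 and overlap in the other 9 genes; per length, Psmd2 and Psmg3 overlap too.

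In the lid, 0 of 8 subunits passed the test by edgeR or DESeq2, and 2 were lower at an unadjusted p of 0.05 by either tool (22.6% of all genes by edgeR and 14.5% by DESeq2). In replicates 3 to 6 alone, Psmd6, Psmd13 and Psmd14 were called lower, as were 24.8% of all genes. Psmd6 was at 43.6 to 63.3 CPM in WT (median 57.6) and at 41.1 to 51.2 CPM in FI3KO (median 46.4, adjusted p = 0.086), and Psmd14 was at 74.98 to 96.5 CPM in WT (median 89.7) and at 68.9 to 86.1 CPM in FI3KO (median 76.6, adjusted p = 0.105). The low WT values of both were replicates 1 and 2, and leaving out WT replicate 1 made both pass (adjusted p = 0.023 for Psmd6 and 0.044 for Psmd14), as did leaving out WT replicate 2. Of the chaperones, Psmd5 and Psmg3 rose. Psmg3 was at 3.61 to 4.52 CPM in WT (median 4.07) and at 5.00 to 6.81 CPM in FI3KO (median 5.46), a log2 fold change of 0.48 ± 0.11 (adjusted p = 0.00384). Its genotypes did not overlap in CPM, but per length they did, at 14.7 to 19.6 TPM in WT and 18.1 to 26.6 TPM in FI3KO. Psmg3 was the member with the largest change and the smallest p in TRAP. Psmd5 was at 42.1 to 45.9 CPM in WT (median 44.1) and at 44.8 to 53.4 CPM in FI3KO (median 48.5), or 0.16 ± 0.052 (adjusted p = 0.0245), and lost its call without any one of 6 libraries (FI3KO replicates 3, 4 or 6 and WT replicates 1, 3 or 6, adjusted p up to 0.059). With the length offset its change was 0.07 (adjusted p = 0.543). Psmd9 (0.24, adjusted p = 0.159) and Psmg2 (-0.18, adjusted p = 0.111) did not pass. Psmd9 was at 16.9 to 21.9 CPM in WT and at 17.5 to 32.1 CPM in FI3KO, and Psmg2 at 10.8 to 13.9 CPM in WT and at 9.44 to 12.1 CPM in FI3KO. Psmf1 was at 26.9 to 34.5 CPM in WT (median 30.5) and at 21.7 to 30.7 CPM in FI3KO (median 26.8), without a call (-0.18, adjusted p = 0.102). Without FI3KO replicate 5 it passed as lower (-0.23, adjusted p = 0.0496).

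The summed level of all members was 4093 ± 299 TPM in WT TRAP and 3955 ± 270 TPM in FI3KO TRAP (SD, n = 6 each), a difference smaller than the spread between libraries. Of the partner genes in TRAP, 2 of 32 rose and 6 fell, against 19.1% and 18.3% of all genes tested. Psmb8 fell by 0.43 and Psmb10 by 0.49 on the log2 scale, both with an adjusted p of 0.015, and Psmb9 did not pass (0.25, adjusted p = 0.12). Psmb9 differed between the replicate sets: it was higher in FI3KO in replicates 3 to 6 (0.49, adjusted p = 0.00264) and at -0.22 in replicates 1 and 2 (adjusted p = 0.267), with an interaction of -0.71 (adjusted p = 0.00701). Psmb10 was at 18.7 and 19.8 CPM in WT replicates 1 and 2, at 30.3 to 32.6 CPM in WT replicates 3 to 6 and at 18.3 to 22.1 CPM in FI3KO (interaction 0.63, adjusted p = 0.00158). The activator Psme4, named after its values were seen because it had the smallest p among the activators, fell from 252 ± 22 to 192 ± 10 CPM (-0.39 ± 0.064, adjusted p = 0.00067). It was at -0.49 in replicates 3 to 6 and at -0.19 in replicates 1 and 2 (adjusted p = 0.118), and the sets differed (interaction 0.29, adjusted p = 0.0458). Psme1, Psme2, Pomp and Nfe2l1 did not pass the test, with log2 fold changes of -0.14, -0.06, 0.13 and -0.09.

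Effects of the genotype in the 2 replicate sets of TRAP were compared by an interaction term, which passed the test in 3 of 39 members, all with the larger value in replicates 1 and 2 (13.7% of all genes passed in that direction and 12.8% in the other). Psmd6 was higher in FI3KO by 0.15 in replicates 1 and 2 and lower by 0.40 in replicates 3 to 6, a difference of 0.55 ± 0.12. Psmb5 differed by 0.55 ± 0.13 and Psmc3 by 0.38 ± 0.12 between the sets. The effect on Psmb5 was 0.49 in the first set and -0.06 in the later one, and that on Psmc3 was 0.07 and -0.31.

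Both experiments were fitted together to test whether the effect of FI3OE differed from that of FI3KO. The FI3OE effect was the larger in 16 of 39 members and the smaller in 0, against 12.9% and 9.73% of all genes; at an unadjusted p of 0.05 the counts were 23 and 1, against 19.1% and 16.1%. In order of p, the 16 were led by Psma1 (difference 0.74 ± 0.098), Psma7 (0.46 ± 0.080), Psmb2 (0.95 ± 0.17, the largest difference) and Psmd13 (0.56 ± 0.10). They held 6 of the 7 tested alpha subunits, all but Psma3, and none of the chaperones. Psmd2 (-0.017 ± 0.091) and Psmb6 (0.062 ± 0.11) were among those for which no difference was found. In both experiments 10 of 39 members were called, as were 17.0% of the 13093 genes tested in both. Of these members, Psmb1, Psmb4, Psmb6, Psmc1, Psmd1, Psmd2 and Psmd5 were higher in both FI3OE and FI3KO than in their WT groups (3.44% of all genes), and Psma6, Psmb2 and Psmc4 were higher in FI3OE and lower in FI3KO (6.28%). Because 33 of the 39 members were called higher in FI3OE, most members called in TRAP fall into these classes. The shares of all genes given here do not allow for this. Across the 39 members, the log2 fold changes of the 2 experiments had a Pearson r of -0.31, given as a description since members are not independent.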

How the data were processed

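RNA-seq libraries had been made after ribosomal RNA removal with an unstranded kit, so that reads of overlapping or antisense genes cannot be told apart. Per the study's methods and processing notes, the authors trimmed reads with fastp and quantified them with Salmon (version 1.4.0, bias correction) against GENCODE M24 of GRCm38. The deposited values used here were estimated counts per transcript, which Salmon gives without normalization, and TPM, which the authors' run of Salmon had scaled for effective length (another column of the deposited tables, in bases, per the file headers) and depth. Transcripts were assigned to genes with GENCODE M21, which matched 99.26% of 118733 transcripts, and estimated counts were summed per gene and rounded. Each experiment was tested alone with edgeR (version 4.0.16) in R (version 4.3.3): genes with low counts were removed by filterByExpr, libraries were scaled by TMM, and the quasi-likelihood test was adjusted by Benjamini-Hochberg over all genes tested. A call is an adjusted p of 0.05 or less; CPM are TMM-scaled. Labels do not say that libraries of the SVF experiment come from separate cultures, so their p-values cover the spread between these libraries. Named genes were Psmb5, Psmb6, Psmb7 and the 2 of smallest p in each subcomplex, given by library (SVF) or by range and median (TRAP); others with such values were chosen after these were seen. The members and all gene lists were chosen with earlier results of these data known. WT TRAP replicates 1 and 2 were the most alike pair (mean chi-square 2.57 per gene, where counting alone gives 1, against at least 9.14 in other WT pairs) and were kept as 2 libraries. Alternatives were DESeq2 (version 1.42.0), other filters and scaling, a length offset, and fits without each library. Intervals of read depth cover counting error only.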

Additional observations from a re-analysis of the deposited data

Results flagged for a closer look

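Among 78 groups of 6 TRAP libraries (39 members in 2 genotypes), 5 held 1 library far from the rest, where chance gives about 3.9. FI3KO replicate 1 was the lowest library in 4 of them: Psma4 at 29.2 CPM with the others at 37.8 to 42.7 CPM, Psma6 at 68.0 CPM (others 80.5 to 85.2), Psmb2 at 24.5 CPM (others 34.7 to 39.9) and Psmc2 at 34.1 CPM (others 50.9 to 58.1). In that library Gm26917 and Gm42418, which overlap ribosomal RNA, took 9.62% of the reads, compared with 0.705 to 1.92% in FI3KO replicates 3 to 6. The share was 6.69% in FI3KO replicate 2 and 4.78% in WT replicate 5, and neither was far from the rest in any member. Its part in these values was not tested. Psmb2 was also far above the rest in WT replicate 3, at 52.7 CPM (others 39.2 to 42.1).

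The genotype effect differed between TRAP replicates 1 and 2 and replicates 3 to 6 by an interaction term in Psmd6 (0.55 on the log2 scale, adjusted p = 0.0062), Psmb5 (0.55, adjusted p = 0.0115) and Psmc3 (0.38, adjusted p = 0.0301).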

How the results depend on the processing

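In SVF-derived adipocytes the count of members called higher was 33 in the fit reported and 0 lower, and it was 32 to 34 when each library was left out, 30 with a length offset and 23 in a fit of all 18 libraries, in which Psmb5, Psmc2, Psmc4, Psmd2, Psmd10 and 5 lid subunits missed the threshold. Of the 33, 21 were called in all 16 alternatives. Apart from DESeq2 and fits of 1 replicate set alone, shares of all genes called in the alternative fits are not given. A change in these counts, here or in TRAP, therefore cannot be set against a background. The fit of all 18 libraries also shares 1 estimate of spread between the 2 experiments. Psmd5 lost its call with the length offset. The median log2 fold change was 0.31 with protein-coding transcripts alone and 0.32 to 0.35 without each library. With both cutoffs the count was 0. In TRAP, 8 members were higher and 3 lower. The counts were 5 to 9 higher and 1 to 6 lower without each library; 6 higher and 1 lower with no filter on low counts; 6 higher and 2 lower with the length offset, which lost Psmb4, Psmc1 and Psmd5; 5 lower in the fit of 18 libraries and with a term for the replicate sets; 7 higher and 6 lower with WT replicates 1 and 2 averaged; 9 higher and 8 lower in replicates 3 to 6; and 0 in replicates 1 and 2 or with both cutoffs. Of the 17 members named by rule in TRAP, 3 changed sign: Psma3 with protein-coding transcripts alone (-0.39, adjusted p = 0.0283), Psmb5 in replicates 3 to 6 (-0.061) and Psmd6 in replicates 1 and 2 (0.15). Other members did so too, such as Psmc3 (0.075 in replicates 1 and 2); the cause was not tested. Replicate numbers did not pair the libraries (correlations of same-numbered libraries -0.34 to 0.097 in TRAP and -0.031 to 0.029 in the SVF experiment, with 0 of 6 and 1 of 3 best with their own number). With the replicate block, 33 members were higher in SVF-derived adipocytes, and 6 were higher and 2 lower in TRAP. In all, 6 members share stretches with other genes, and levels of Psma8 and Psmb11 are limited by depth, with 13 to 34 reads over each group.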
